A study of Mus musculus with 13 samples.

Results

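The 49 genes described here encode non-collagen proteins of the extracellular matrix and markers of fibroblasts and myofibroblasts. They were chosen as listed symbols in the table of RSEM expected counts, which holds 21100 genes, and all 49 had a value in every tumor and passed the filter on low counts that 14390 genes passed. Fibroblasts of the skin secrete a scaffold in which small leucine-rich proteoglycans coat collagen fibrils, and in which elastin is laid on fibrillin microfibrils with the help of fibulins, emilins and lysyl oxidases. Around basal cell carcinoma the matrix is remodelled, with adhesive glycoproteins such as fibronectin and tenascin-C and with contractile fibroblasts that carry smooth muscle proteins. Several of these genes are not particular to fibroblasts, since epithelial tumor cells can also make fibronectin, tenascin-C and thrombospondins, and smooth muscle and pericytes carry the same contractile proteins.

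Poly(A) RNA was sequenced from 9 GEM-BCC tumors of 7 female Ptch1+/- K14-CreER2 p53fl/fl mice and from 4 Tp-BCC tumors of 4 female Ptch1+/-p53fl/fl mice. GEM-BCC tumors arose in the skin, labelled as intradermal, after 3 injections of 300 µg tamoxifen and 4 Gy of X-ray, and Cre was driven by the keratin 14 promoter and so acted in basal epithelial cells. Tp-BCC tumors grew under the skin of the right flank after inoculation of isolated cells of GEM-BCC origin, at the same number of cells per host. All descend from 1 GEM-BCC tumor, so that they are replicates of 1 line. According to the paper, tumor cells of this line were passaged serially from host to host. The paper does not state which generation was sequenced. The labels give the hosts of Tp-BCC no Cre transgene and no tamoxifen or X-ray. Both kinds of mice share the Ptch1+/- and p53fl/fl alleles, so the stroma around a transplant carries them too. Ages were not given in the sources used here.

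GEM-BCC libraries held 28075317 to 32629102 counts each, and those of Tp-BCC, sequenced less deeply, 15388027 to 17494912. GEM-BCC was labelled batch 1 and Tp-BCC batch 2, so batch and model cannot be told apart, and intradermal and subcutaneous sites follow the same split. Among Tp-BCC tumors, log2 CPM relative to the mean fell with the GC content of transcripts in TP1 and TP3 (Spearman rho -0.389 and -0.473 across genes) and rose with it in TP2 and TP4 (0.594 and 0.591), and GEM1 also stood apart from the other GEM-BCC tumors (0.365 against -0.312 to -0.150). The fibroblast collagens Col1a1, Col1a2 and Col3a1 were abundant in every tumor, summing to 11520 to 48384 CPM in GEM-BCC and 13583 to 27436 CPM in Tp-BCC. In bulk tumors, fewer fibroblasts and less RNA per fibroblast cannot be told apart.

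Levels are given in CPM, that is, counts relative to the TMM-scaled size of each library. Differences are log2 fold changes of Tp-BCC relative to GEM-BCC with their standard errors, from edgeR's quasi-likelihood test with Benjamini-Hochberg adjustment over all tested genes. A gene rose or fell if the adjusted p was under 0.05, and it was called if the absolute log2 fold change was also above 2. Tp-BCC is represented by 4 tumors of 1 line, and 2 pairs of GEM-BCC tumors shared a mouse, so p-values measure the spread between these tumors.

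The matrix genes did not move as a block. Of the 49 members 10 were called, 4 lower in Tp-BCC (Crtac1, Tnc, Thbs1 and Ccdc80), where 3.21% of all tested genes were called lower, and 6 higher (Emilin3, Ogn, Fn1, Loxl1, Fbn2 and Pi16), where 2.36% of all tested genes were called higher. By the adjusted p alone 6 members fell and 17 rose, beside 8.35% and 11.1% of all tested genes, and 26 members did not pass. The same shares of all tested genes stand beside every count of falls and rises below. The median log2 fold change of the members was 0.10, against -0.03 over all tested genes. In 6 members every Tp-BCC tumor lay below every GEM-BCC tumor, and in 8 every one lay above, beside 4.45% and 5.5% of all tested genes. The members' summed level overlapped between the models, at 9683 to 18772 CPM in GEM-BCC and 11298 to 17287 CPM in Tp-BCC.

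**Figure D1:**
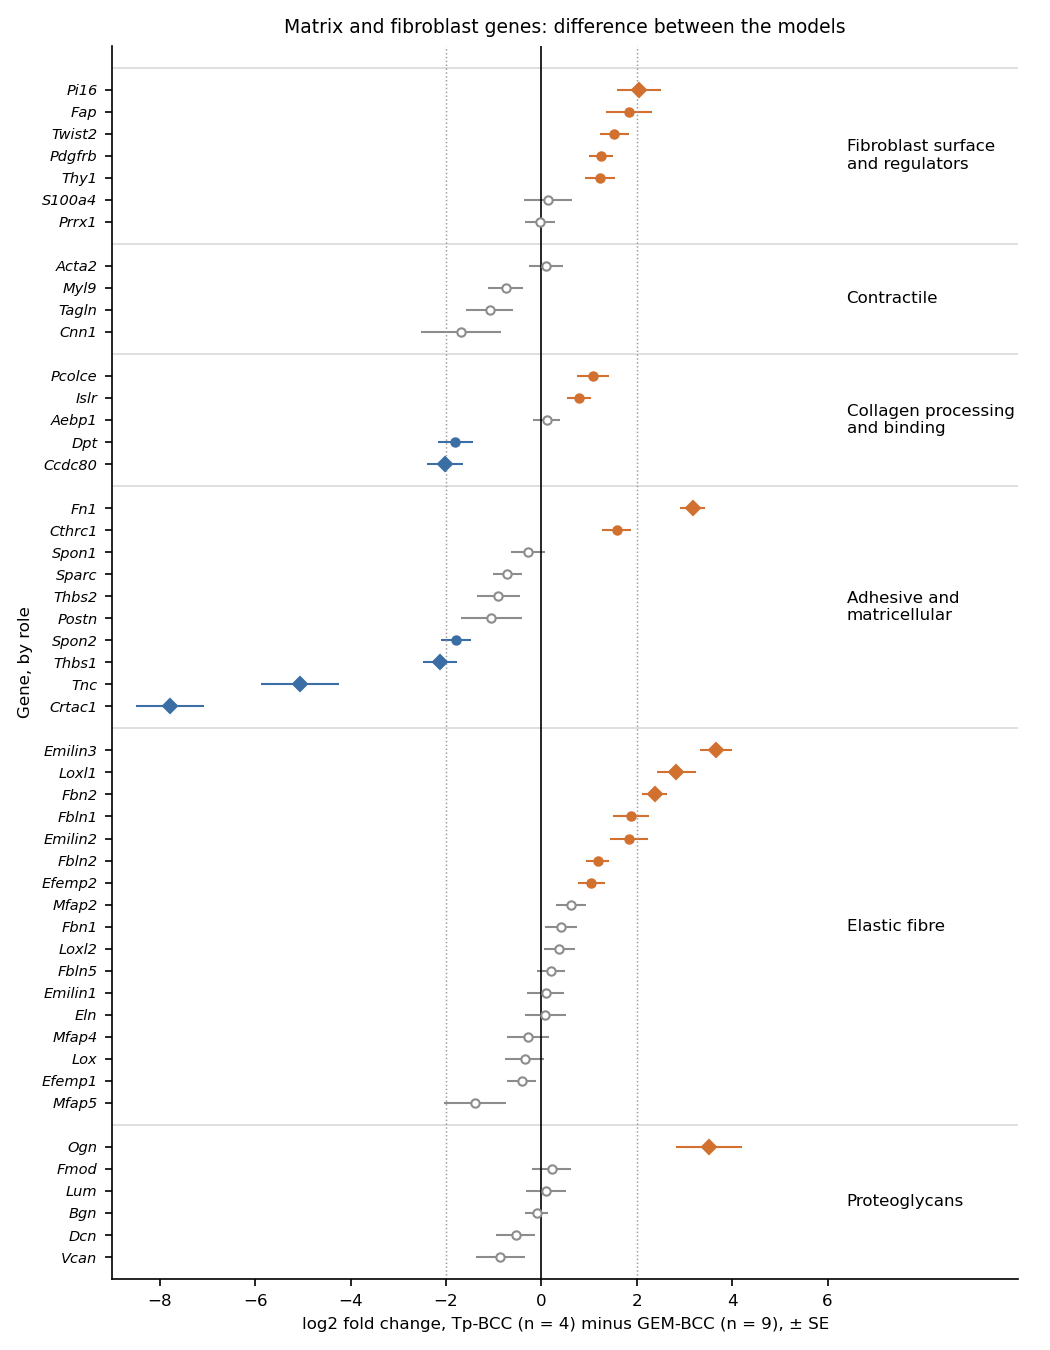
The horizontal axis gives the log2 fold change of each of the 49 members in Tp-BCC (n = 4) relative to GEM-BCC (n = 9) with its standard error, and the vertical axis lists genes by role. Filled symbols passed the adjusted p, diamonds also passed the fold threshold marked by dotted lines at -2 and 2, and open circles passed neither. Elastic fibre genes and fibroblast markers past the test lie to the right, whereas adhesive glycoproteins lie on both sides, from Crtac1 at -7.79 to Fn1 at 3.17.

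Among the adhesive and matricellular glycoproteins, members moved in both directions. Of 10 members 4 fell, 2 rose and 4 did not pass, and the group's median log2 fold change was -0.97. Fn1 encodes fibronectin, the glycoprotein through which integrins anchor cells to matrix. Its level was 76.6, 158 and 232 CPM (lowest, median and highest) in GEM-BCC, and 1079, 1927, 1057 and 1801 CPM in TP1 to TP4. All 4 Tp-BCC tumors stood far above all 9 GEM-BCC tumors, with a 4.56-fold gap between the nearest tumors of the models. The log2 fold change was 3.17 (SE 0.26), or 9-fold, with an adjusted p of 1.32e-06 in edgeR's quasi-likelihood test. Fibronectin made up 0.489% to 1.65% of the members' summed CPM in GEM-BCC but 9.29% to 12.1% in Tp-BCC.

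Tnc encodes tenascin-C, a hexameric glycoprotein that is scarce in resting dermis and abundant in wounds and tumor stroma. Its level spread from 43.8 CPM in GEM3 through a median of 368 CPM to 1506 CPM in GEM4, and was 15.01, 19.2, 17.6 and 17.5 CPM in TP1 to TP4. The Tp-BCC tumors were nearly alike in Tnc and all lay below GEM3, by 2.29-fold at the nearest. The log2 fold change was -5.06 (SE 0.82, adjusted p 0.0007, edgeR). Since the transcripts of Fn1 and Tnc have a close GC content (53.6% and 52.7%), their ratio within a tumor could be set beside these values: Fn1 over Tnc was 0.0937 to 1.75 in GEM-BCC but 60.1 to 103 in Tp-BCC.

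Crtac1 encodes cartilage acidic protein 1, a secreted glycoprotein described in cartilage. It had 29.7, 56.0 and 103 CPM (lowest, median and highest) in GEM-BCC and 0.589, 0.579, 0.0599 and 0 CPM in TP1 to TP4. Counts in Tp-BCC libraries were 0 to 10, so the level there was close to the limit of detection. The log2 fold change was -7.79 (SE 0.71, adjusted p 3.91e-06, edgeR), and the lowest GEM-BCC tumor stood 50.4-fold above the highest Tp-BCC tumor.

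Thbs1 encodes thrombospondin-1, an inhibitor of angiogenesis that can also activate latent Tgf-beta. It had 62.0, 138 and 276 CPM in GEM-BCC (lowest, median and highest) and 38.4, 47.6, 34.5 and 22.9 CPM in TP1 to TP4, with no overlap. The log2 fold change was -2.12 (SE 0.36, adjusted p 0.000951, edgeR), and it was -1.97 to -2.31 with any one tumor left out, so Thbs1 came under the fold threshold without GEM9 and, narrowly, without TP4. Spon2, encoding the secreted spondin-2, also fell without reaching that threshold (-1.79, SE 0.32, adjusted p 0.00155, edgeR). Cthrc1, a secreted protein of activated fibroblasts, rose from 3.15 to 11.5 CPM in GEM-BCC to 12.3 to 20.4 CPM in Tp-BCC (log2 fold change 1.58, SE 0.30, adjusted p 0.00256, edgeR).

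Sparc, which encodes the collagen-binding protein osteonectin, was the best-expressed member per kilobase in GEM-BCC. Its level was 1572, 3539.9 and 6574 CPM (lowest, median and highest) in GEM-BCC and 1921, 2499, 1709.8 and 2608 CPM in TP1 to TP4. The models overlapped and the difference did not pass (-0.71, SE 0.31, adjusted p 0.12, edgeR). Postn encodes periostin, which cross-links collagen and tenascin. It had 240.5, 1025 and 1722 CPM in GEM-BCC, and in Tp-BCC 797 and 889 CPM in TP1 and TP3 but 67.5 and 130.5 CPM in TP2 and TP4. Postn did not pass (-1.05, SE 0.64, adjusted p 0.258, edgeR). Thbs2, encoding thrombospondin-2, and Spon1, encoding F-spondin, did not pass either (-0.90, SE 0.45, and -0.28, SE 0.36).

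Of the 33 further glycoproteins of this class in a list of relatives, 27 were tested, of which 7 fell and 5 rose, with a median of 0.14. The tenascins Tnn and Tnr were called lower with Tnc, at -4.18 (SE 0.93) and -2.46 (SE 0.71), but Tnr overlapped between the models and did not pass without TP1, TP2 or TP4 (adjusted p 0.051 to 0.0725). Thbs4, a further thrombospondin, was called lower at -2.93 (SE 0.71), as were Tgfbi, an adhesive protein induced by Tgf-beta (-3.23, SE 0.64), and Matn4, a matrilin (-2.54, SE 0.41). Ccn5 (4.04, SE 0.41) and Ecm1 (2.04, SE 0.28) were called higher. Ccn5, among the 5 that rose, had 4 to 8 counts in GEM-BCC libraries and 28 to 89 in Tp-BCC ones. It passed the filter on low counts only through Tp-BCC, so the test could only find it higher. In fits without a Tp-BCC tumor it was not tested. Ecm1 was under the fold threshold in 6 of the 13 fits that left out 1 tumor (without GEM2, GEM3, GEM7, GEM9, TP2 or TP4), at 1.68 without TP4. Of 10 Tgf-beta ligands, receptors and Smads, 1 passed, namely Smad4, the shared Smad, which fell (-1.69, SE 0.22, adjusted p 0.000114, edgeR) and is named after its value was seen.

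**Figure D2:**
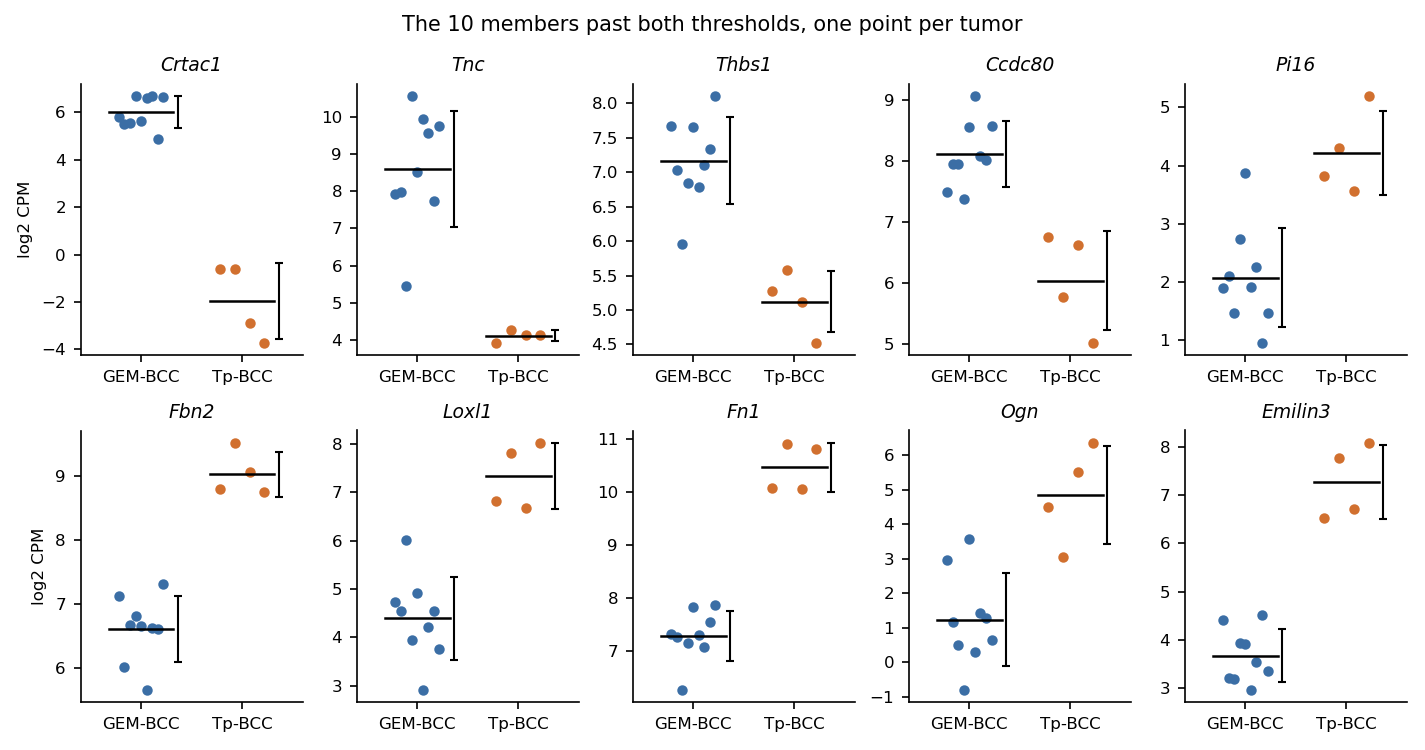
Each panel gives log2 CPM of a called member, with 1 point per tumor (9 GEM-BCC tumors in blue, 4 Tp-BCC tumors in orange), the mean as a bar and the SD as a bracket. Vertical scales differ between panels. The Tp-BCC points lie apart from all GEM-BCC points in 8 panels, and overlap with them in Ogn and Pi16, where GEM5 reaches 11.9 and 14.5 CPM.

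The elastic fibre members moved in 1 direction where they passed the test: of 17 members 7 rose, 0 fell and 10 did not pass, with a median log2 fold change of 0.41. Over all tested genes 11.1% rose and 8.35% fell, and of 16 other listed elastic fibre genes 1 rose and 2 fell. The summed level of the 17 members was 1719 to 3125 CPM in GEM-BCC and 3269 to 5361 CPM in Tp-BCC, so the models did not overlap. At an unadjusted p under 0.05 there were 8 members, of which 1, Mfap5, was lower in Tp-BCC (-1.40, SE 0.65, adjusted p 0.14, edgeR). Eln, the gene of elastin, did not pass and had 39.1, 182 and 346 CPM (lowest, median and highest) in GEM-BCC and 149.9, 179, 118 and 309 CPM in TP1 to TP4, a log2 fold change of 0.08 (SE 0.43).

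Fbn1 and Fbn2 encode the fibrillins of microfibrils, of which fibrillin-2 is made mainly during development. Fbn2 had 50.04, 101 and 159 CPM (lowest, median and highest) in GEM-BCC and 444, 736, 533 and 432 CPM in TP1 to TP4, all above GEM-BCC, and was called higher (2.38, SE 0.26, adjusted p 1.76e-05, edgeR). Fbn1 had 224, 338 and 756 CPM in GEM-BCC and 552, 671, 520.1 and 447 CPM in TP1 to TP4, within the GEM-BCC range (0.41, SE 0.33, adjusted p 0.404, edgeR). Fbn2 over Fbn1 in CPM was therefore 0.146 to 0.452 in GEM-BCC and 0.804, 1.10, 1.02 and 0.966 in TP1 to TP4, at a GC content of 52.6% and 51.8%.

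Emilins are glycoproteins at the interface of elastin and microfibrils. Emilin3 was the member with the highest log2 fold change, with 7.69, 11.6 and 22.9 CPM (lowest, median and highest) in GEM-BCC and 92.0, 218, 105 and 271 CPM in TP1 to TP4. It was 12.6-fold higher in Tp-BCC (log2 fold change 3.66, SE 0.33, adjusted p 3.67e-06, edgeR), with a 4.03-fold gap between the nearest tumors. Emilin2 rose as well (1.84, SE 0.39, adjusted p 0.00477, edgeR), whereas Emilin1 had a log2 fold change of 0.09 (SE 0.38). Emilin3 over Emilin1 in CPM was 0.0387 to 0.406 in GEM-BCC but 1.58 to 2.02 in Tp-BCC.

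Lysyl oxidases cross-link elastin and collagen, and Loxl1 is the family member tied to elastic fibres. Loxl1 had 7.42, 23.1 and 64.4 CPM in GEM-BCC (lowest, median and highest) and 112, 226, 102 and 260.1 CPM in TP1 to TP4, with no overlap, and was called higher (2.83, SE 0.41, adjusted p 0.000321, edgeR). Lox did not pass (-0.35, SE 0.41), with 65.3 and 64.5 CPM in TP1 and TP3 and 16.4 and 18.4 CPM in TP2 and TP4. Loxl2 did not pass either (0.38, SE 0.32). Among the family's other genes, Loxl3 was called higher (2.48, SE 0.49), and Loxl4, named after its value was seen, fell (-1.90, SE 0.28).

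Fibulins are glycoproteins that link elastin, fibrillins and basement membranes. Fbln2, the best expressed of them, had 323, 539.5 and 625.1 CPM (lowest, median and highest) in GEM-BCC and 784, 1397, 764 and 1466 CPM in TP1 to TP4, all above GEM-BCC (1.18, SE 0.24, adjusted p 0.00351, edgeR). Fbln1 rose to 154 to 444 CPM from 37.3 to 162 CPM, with GEM4 above TP3 (1.88, SE 0.37, adjusted p 0.00269, edgeR). Efemp2, encoding the fibulin that brings lysyl oxidase to elastin, rose by less (1.05, SE 0.28, adjusted p 0.0175, edgeR), and it did not pass without TP2 or without TP4 (adjusted p 0.0745 and 0.0862). Fbln5, its partner in elastogenesis, and Efemp1 had values of 0.20 (SE 0.30) and -0.41 (SE 0.30) and did not pass. The microfibril-associated Mfap2 (0.62, SE 0.31) and Mfap4 (-0.27, SE 0.44) did not pass. With TP1 and TP3 as the only Tp-BCC tumors, a setting added after seeing the data, some rises of elastic fibre members did not pass. These were Emilin2 (1.42), Fbln1 (1.09), Fbln2 (0.67) and Efemp2 (0.47), with adjusted p of 0.084 to 0.352 in edgeR. Of 16 other elastic fibre genes that were listed and tested, 1 rose, Loxl3, and 2 fell, Loxl4 and Adamtsl2, the latter encoding a fibrillin-binding protein (-2.61, SE 0.56).

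Among the proteoglycans 1 of 6 members rose and 0 fell, with a median of -0.01, and 1 passed at an unadjusted p under 0.05. Ogn encodes osteoglycin, a small leucine-rich protein also called mimecan. It had 0.494, 2.18 and 11.9 CPM (lowest, median and highest) in GEM-BCC and 22.4, 8.16, 45.6 and 82.1 CPM in TP1 to TP4, so that TP2 lay below GEM5. The log2 fold change was 3.51 (SE 0.69, adjusted p 0.00287, edgeR). Bgn encodes biglycan, the best expressed of the group, with 1371, 1919 and 2674 CPM in GEM-BCC and 1205, 2107, 1157 and 2584 CPM in TP1 to TP4. Its difference was -0.10 (SE 0.25), and with TP2 and TP4 as the only Tp-BCC tumors it was 0.31. Dcn, encoding decorin, had 137, 261 and 636 CPM in GEM-BCC and 265, 64.7, 244 and 162 CPM in TP1 to TP4 (-0.54, SE 0.41). Lum, lumican (0.09, SE 0.42), and Fmod, fibromodulin (0.22, SE 0.41), did not pass.

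Vcan encodes versican, a large hyaluronan-binding proteoglycan, and is given in full for its split, which was chosen after its values were seen. It had 101 to 208 CPM in GEM-BCC, 111 and 169.8 CPM in TP1 and TP3, and 14.3 and 17.6 CPM in TP2 and TP4. It did not pass in the edgeR test (-0.86, SE 0.51, adjusted p 0.247). It passed with limma, both without removal of a GC trend (-1.56, adjusted p 0.043) and with it (-1.06, adjusted p 0.0286), and in edgeR without TP3 (-1.57, adjusted p 0.0463).

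Ogn stands on chromosome 13 in a row of leucine-rich genes, which RefSeq orders as Ecm2, Aspn, Omd and Ogn. In Tp-BCC the adjoining Omd and Aspn, encoding osteomodulin and asporin, were called higher with Ogn, at 4.53 (SE 0.69) and 3.48 (SE 0.64). Omd had 0.0989 to 2.57 CPM in GEM-BCC and 7.65, 8.42, 18.7 and 43.0 CPM in TP1 to TP4. Aspn had 0.356 to 5.23 CPM in GEM-BCC and 10.8, 3.02, 29.0 and 49.2 CPM in TP1 to TP4, with the same order of tumors as Ogn. Ecm2 did not pass (-1.34, SE 0.66, adjusted p 0.164, edgeR), nor did Nol8 on the other side of Ogn (0.09, SE 0.52), both named after their values were seen. A second row, on chromosome 10, holds Dcn, Lum and Kera. Kera, encoding keratocan, was called higher (5.37, SE 0.57), from 0.0598 to 1.304 CPM in GEM-BCC to 7.65 to 34.7 CPM in Tp-BCC, while its neighbours Lum and Dcn did not pass. Of 16 listed relatives of the proteoglycans 11 were tested, of which 3 rose and 1 fell, namely Chadl (-2.16, SE 0.46), which was narrowly under the fold threshold without TP1 or TP3 (-1.98 and -1.97).

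Of the 5 members that process or bind collagen, 2 rose, 2 fell and 1 did not pass. Ccdc80, a secreted matrix-binding protein, had 166, 259 and 536 CPM (lowest, median and highest) in GEM-BCC and 107, 55.03, 98.3 and 32.3 CPM in TP1 to TP4, with no overlap. It was called lower (-2.02, SE 0.38, adjusted p 0.00218, edgeR), just beyond the fold threshold. The log2 fold change was -1.80 to -2.26 with any one tumor left out, and it came under the threshold without GEM5, GEM6, GEM9, TP2 or TP4. Dpt, encoding dermatopontin, which binds decorin and speeds collagen assembly, fell (-1.80, SE 0.37, adjusted p 0.00384, edgeR) with no overlap. Pcolce, the enhancer of procollagen C-proteinase, had 94.5, 222 and 394 CPM in GEM-BCC and 356, 566, 331 and 769 CPM in TP1 to TP4. It rose (1.08, SE 0.33, adjusted p 0.034, edgeR), and it passed in 6 of the 13 fits that left out 1 tumor. Aebp1, a collagen-binding carboxypeptidase-like protein, had 239.8, 322 and 496 CPM in GEM-BCC and 244, 406, 252 and 643 CPM in TP1 to TP4, and did not pass (0.11, SE 0.28). Islr, encoding meflin, rose at the edge of the threshold (0.79, SE 0.26, adjusted p 0.0456, edgeR) and passed in 4 of those 13 fits.

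The fibroblast surface proteins and regulators were the role group with the highest median, 1.25: of 7 members 5 rose, 0 fell and 2 did not pass, also by an unadjusted p under 0.05. By the adjusted p 11.1% of all tested genes rose and 8.35% fell. The summed level of the 7 members was 349 to 1004 CPM in GEM-BCC and 934 to 1597 CPM in Tp-BCC. Pi16, a marker of fibroblasts of the adventitia and fascia, had 1.85, 3.71 and 14.5 CPM (lowest, median and highest) in GEM-BCC and 14.1, 19.7, 11.7 and 36.7 CPM in TP1 to TP4. It was called higher (2.05, SE 0.46, adjusted p 0.00643, edgeR), with overlap through GEM5, and without TP4 it was neither past the adjusted p (0.0503) nor past the fold (1.55). It was also under the fold threshold without GEM1, GEM3, GEM8 or GEM9 (1.91 to 1.97). Thy1, the surface glycoprotein CD90, had 107, 188 and 403 CPM in GEM-BCC and 382, 658, 330.0 and 673 CPM in TP1 to TP4, so that GEM3 lay above TP1 and TP3 (1.23, SE 0.32, adjusted p 0.0149, edgeR). Its adjusted p was 0.0707 without TP2 and 0.0653 without TP4.

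Twist2, a mesenchymal transcription factor of the dermis, had 63.6, 114 and 212 CPM in GEM-BCC and 213, 388, 196 and 467 CPM in TP1 to TP4 (1.53, SE 0.31, adjusted p 0.00342, edgeR). Pdgfrb, the Pdgf receptor of pericytes and fibroblasts, rose with no overlap, from 63.6 to 125 CPM to 148 to 300.1 CPM (1.25, SE 0.25, adjusted p 0.00306, edgeR). Fap, the protease of activated fibroblasts, was the member with the lowest level per kilobase in GEM-BCC, at 0.363 to 2.00 CPM, and had 4.77, 1.16, 7.003 and 2.71 CPM in TP1 to TP4 (1.83, SE 0.48, adjusted p 0.0146, edgeR). Its adjusted p was 0.0642 without TP3. Prrx1, a transcription factor of limb and skin mesenchyme, had 82.9 to 182 CPM in GEM-BCC, and 167 and 210.2 CPM in TP1 and TP3 against 82.1 and 54.5 CPM in TP2 and TP4. It did not pass (-0.03, SE 0.32), nor did S100a4, a calcium-binding protein of fibroblasts and other motile cells (0.14, SE 0.51). With TP1 and TP3 as the only Tp-BCC tumors, a setting added after seeing the data, most of the rises did not pass. These were Pdgfrb (0.69), Thy1 (0.71), Pi16 (1.37) and Twist2 (0.90), with adjusted p of 0.101 to 0.26 in edgeR. Fap did not pass with TP2 and TP4 as the only Tp-BCC tumors (0.82, adjusted p 0.274, edgeR). Such fits hold fewer tumors.

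Of 24 further fibroblast genes, 7 rose and 1 fell, beside 11.1% and 8.35% of all tested genes, with a median of 0.43. Cygb, among the 7 and named after its value was seen, passed in 2 of the 13 fits that left out 1 tumor. Pdgfra, the receptor that marks most dermal fibroblasts, was called higher (2.14, SE 0.35), with 181 to 399.5 CPM in GEM-BCC and 1562, 750.0, 1552 and 245 CPM in TP1 to TP4. It was under the fold threshold without TP1 or without TP3 (1.87 in both) and with limma (1.85). The fibrillar collagen Col1a1 fell (-1.12, SE 0.38, adjusted p 0.0497, edgeR), which held in 4 of the 13 fits that left out 1 tumor (adjusted p up to 0.124), whereas Col1a2 (-0.58, SE 0.34) and Col3a1 (0.15, SE 0.28) did not pass. Other collagens of the list rose with no overlap: Col5a1 (1.24, SE 0.24), Col5a2 (1.01, SE 0.17) and Col6a3 (1.17, SE 0.23). They were named after their values were seen and passed in each of the 13 fits. Relative to the mean log2 CPM of Col1a1, Col1a2 and Col3a1, with no test, Ogn stood 4.13 higher in Tp-BCC, Emilin3 4.10, Fn1 3.68 and Loxl1 3.44. This scale follows Col1a1, Col1a2 and Col3a1 alone, and Col1a1 fell, so it does not measure fibroblast RNA as a whole. On it Ogn, Efemp2, Pcolce, Islr, Thy1, Pi16 and Twist2 lay above GEM-BCC with no overlap, although they overlapped in CPM. On the same scale Crtac1 stood at -7.46 and Tnc at -3.99, and Spon2 remained apart (-1.31). Thbs1, Ccdc80 and Dpt, which were apart in CPM, overlapped between the models on this scale.

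**Figure D3:**
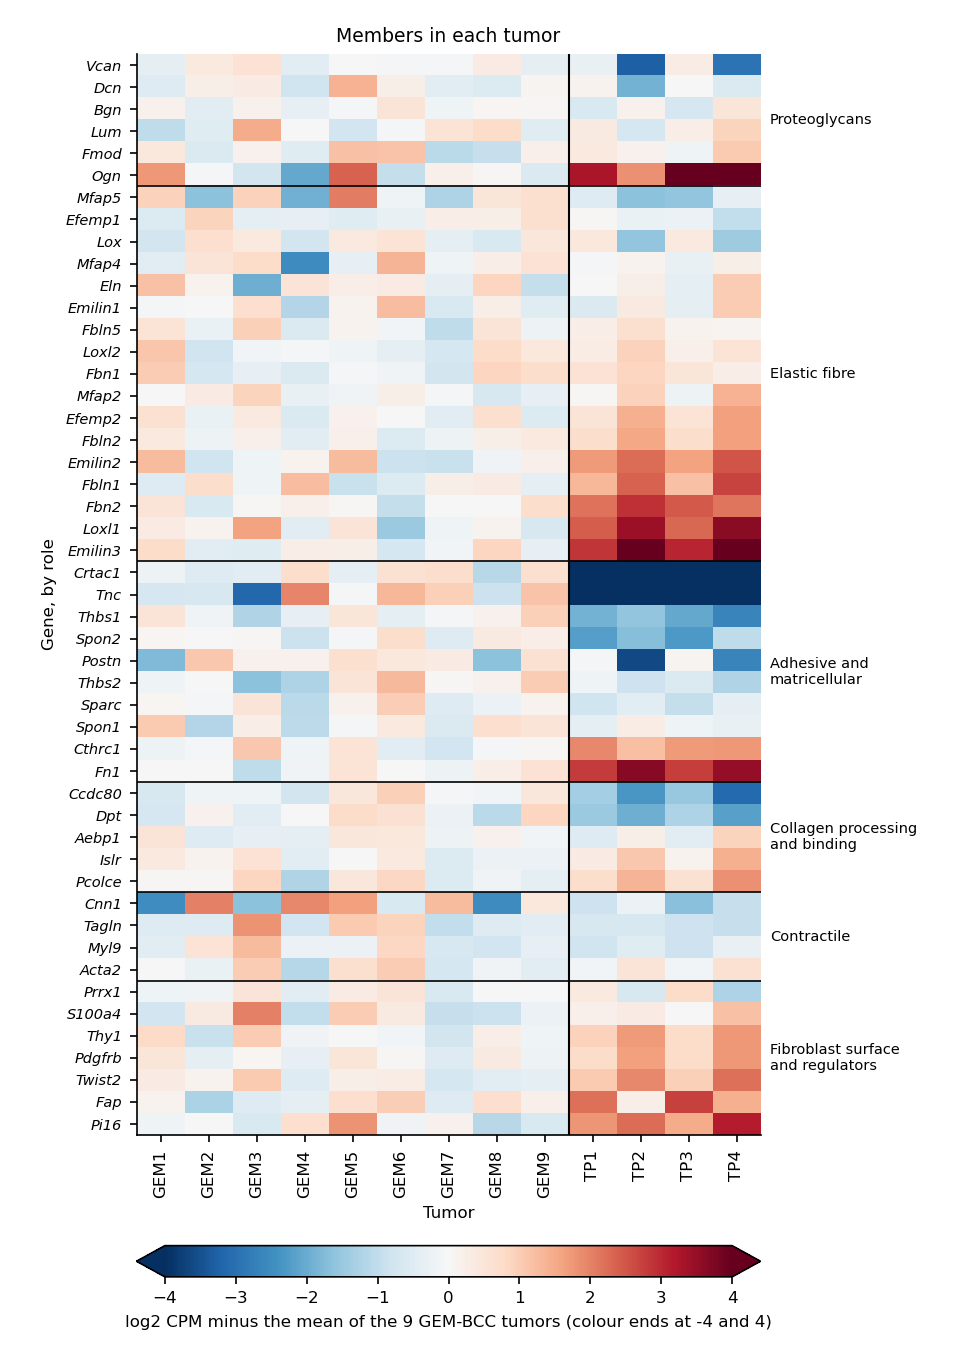
Rows are the 49 members by role and columns the 13 tumors, with colour for log2 CPM minus the mean of the 9 GEM-BCC tumors. Tnc and Crtac1 are dark blue and Fn1, Emilin3, Loxl1 and Fbn2 red in all 4 Tp-BCC columns, whereas Vcan, Postn and Lox are clearly blue in TP2 and TP4 but pale in TP1 and TP3.

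The contractile markers did not pass in either direction: of 4 members 0 rose and 0 fell in edgeR's test, with a median of -0.91, and at an unadjusted p under 0.05 there was 1, Tagln. Acta2 encodes smooth muscle actin, the marker of myofibroblasts, and had 122, 246 and 540.1 CPM (lowest, median and highest) in GEM-BCC and 249, 381, 251 and 414 CPM in TP1 to TP4 (0.10, SE 0.36). Tagln, the actin-binding transgelin, had 79.2, 111 and 541 CPM in GEM-BCC and 102, 102, 89.1 and 82.0 CPM in TP1 to TP4 (-1.08, SE 0.49, adjusted p 0.135, edgeR). Myl9, the regulatory light chain of smooth muscle myosin, had 181, 263 and 739 CPM in GEM-BCC and 176, 221, 174 and 250.3 CPM in TP1 to TP4 (-0.75, SE 0.37, adjusted p 0.159, edgeR). Cnn1, calponin 1 of differentiated smooth muscle, had 0.798, 6.66 and 20.1 CPM in GEM-BCC and 2.77, 4.18, 1.496 and 2.57 CPM in TP1 to TP4 (-1.69, SE 0.84, adjusted p 0.166, edgeR). The Tp-BCC tumors lay within the GEM-BCC range for Acta2, Tagln and Cnn1, and TP1 and TP3 lay just below it for Myl9. Tagln spanned 6.83-fold and Cnn1 25.2-fold among GEM-BCC tumors alone.

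Among the 9 GEM-BCC tumors Acta2 and Tagln varied together (Pearson r 0.91) and Myl9 followed them less closely (0.65 with Acta2, 0.73 with Tagln). Cnn1 did not follow, with r of -0.42, -0.21 and -0.01 to Acta2, Tagln and Myl9. These correlations describe 9 tumors of 1 batch, 2 pairs of which shared a mouse. GEM3, GEM5 and GEM6 held the 3 highest values of both Acta2 and Tagln, whereas Cnn1 was highest in GEM2 and GEM4 and lowest in GEM1 and GEM8. Of 16 further smooth muscle genes 15 were tested, of which 2 rose and 2 fell, with a median of 0.03. The falls were Mylk (-1.38, SE 0.26, adjusted p 0.00214, edgeR) and Mrtfb (-0.82, SE 0.26), named after their values were seen. Mylk did not overlap between the models and passed in each of the 13 fits that left out 1 tumor, and Mrtfb in 6. Mrtfa, likewise named, rose (0.86, SE 0.23) and passed in 11 of them. Des, encoding desmin of smooth and skeletal muscle, was called higher (2.91, SE 0.58), with 33.77 CPM in TP4 and 5.27 to 11.2 CPM in the other Tp-BCC tumors, and without TP4 its log2 fold change was 1.93, under the threshold. TP4 also held the most RNA of the skeletal muscle genes Acta1 (79.5 CPM) and Ckm (21.9 CPM), named after their values were seen, and their part in the level of Des was not tested.

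**Figure D4:**
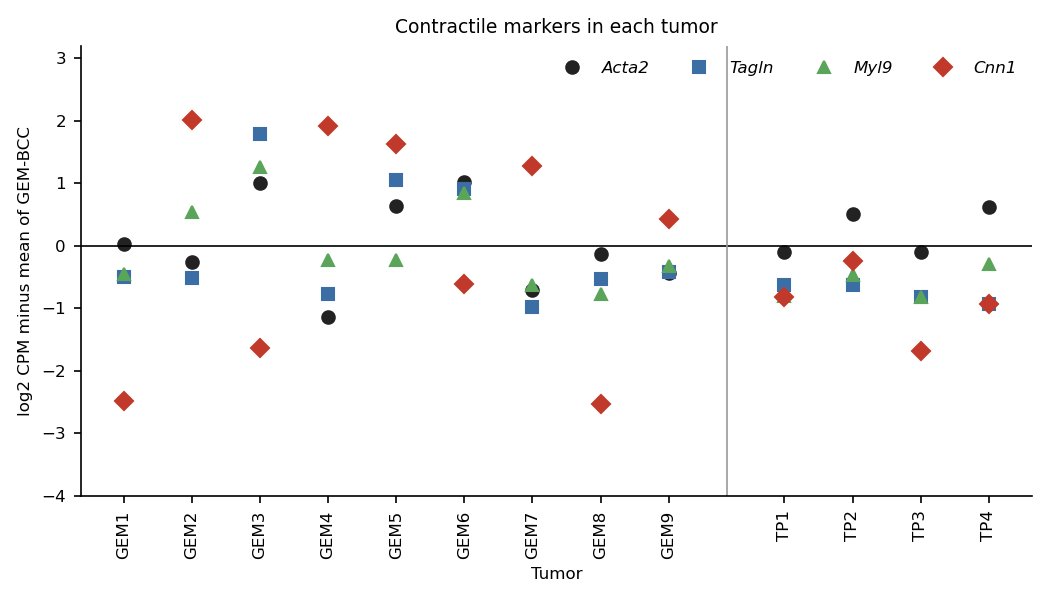
The vertical axis gives log2 CPM of Acta2, Tagln, Myl9 and Cnn1 minus the gene's mean over GEM-BCC, for each tumor on the horizontal axis. Acta2 and Tagln share their 3 highest GEM-BCC tumors, GEM3, GEM5 and GEM6, while Cnn1 is low in GEM1, GEM3 and GEM8.

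Contractile genes are classic targets of serum response factor, which binds an element known as the CArG box, a run of A or T between CC and GG. RefSeq promoters (GRCm38.p6) were at hand for 29 of the 49 members, among them Acta2, Myl9 and Cnn1. The 250 bases before the start are shown for these 3, since Acta2 and Myl9 varied together over GEM-BCC tumors and Cnn1 did not, with CArG boxes in capitals (6 central bases, of which 1 may be other than A or T; the element reads alike on both strands). Acta2 is on the minus strand at chr19:34255374-34255623, Myl9 on the plus strand at chr2:156775214-156775463 and Cnn1 on the plus strand at chr9:22099003-22099252.
Acta2: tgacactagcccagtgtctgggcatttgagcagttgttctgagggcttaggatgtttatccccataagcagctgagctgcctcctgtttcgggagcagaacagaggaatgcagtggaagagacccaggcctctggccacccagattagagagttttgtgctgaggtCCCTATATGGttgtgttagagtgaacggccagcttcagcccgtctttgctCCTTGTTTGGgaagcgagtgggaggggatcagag
Myl9: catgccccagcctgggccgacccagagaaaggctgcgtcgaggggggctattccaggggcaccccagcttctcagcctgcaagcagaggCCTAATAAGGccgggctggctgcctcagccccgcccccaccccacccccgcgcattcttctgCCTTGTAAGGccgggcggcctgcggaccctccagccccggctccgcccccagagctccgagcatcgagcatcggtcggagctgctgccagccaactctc
Cnn1: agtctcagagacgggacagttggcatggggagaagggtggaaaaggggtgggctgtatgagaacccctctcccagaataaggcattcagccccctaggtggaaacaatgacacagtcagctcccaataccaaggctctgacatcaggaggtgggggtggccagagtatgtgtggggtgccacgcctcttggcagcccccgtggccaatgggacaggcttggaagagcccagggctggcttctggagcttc
The Acta2 window held 2 boxes, 84 and 34 bases before the start, and the Myl9 window 2, at 161 and 99 bases, and none was found in the Cnn1 window. With 1 exception allowed, 8.59% of all 32851 promoters held a CArG box, and 3 of the 29 members did, the last being Fbln2. With no exception the share was 1.47%, and Myl9 alone of these members had one. Such matches describe the letters of these windows only.

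Within Tp-BCC the members split by GC content. Of the 49, 10 were higher in both TP1 and TP3 than in TP2 and TP4, and 25 were lower in both. The share of all tested genes that split in this way was not counted, so these counts do not set the members apart. The difference between these pairs of tumors, in log2 CPM, fell with the GC content of the members (36.3% to 61.1%), with Pearson r of -0.77 and Spearman rho of -0.87 across 49 members, beside a rho of -0.79 over all tested genes. Genes are not independent replicates, and each pair shares its libraries. After a GC trend had been removed from each tumor, the median SD of members in Tp-BCC was 0.25 instead of 0.58, while that in GEM-BCC was 0.65 instead of 0.67. Each of the 10 called members passed the adjusted p of limma after that removal, in the same direction, but Thbs1 (-1.90), Ccdc80 (-1.92) and Pi16 (1.88) were then under the fold threshold. Spon2 (-2.09), Cthrc1 (2.10) and Fap (2.18) came over it. What caused the split was not tested.

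**Figure D5:**
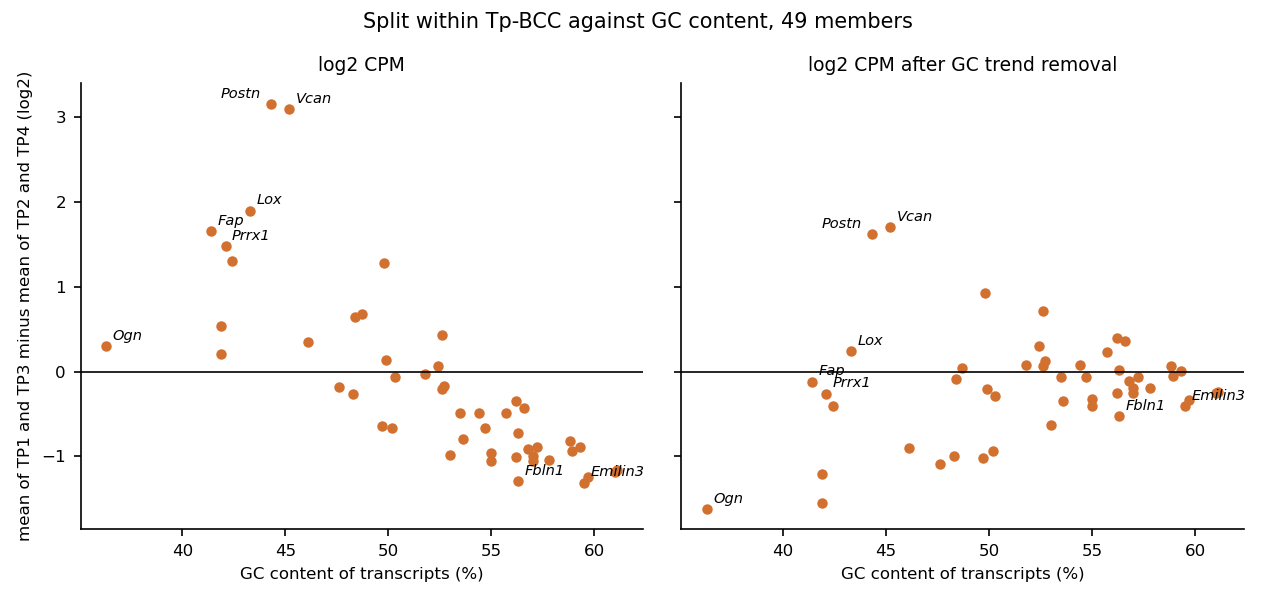
Points are the 49 members, with the GC content of their transcripts on the horizontal axis and, on the vertical axis, the mean log2 CPM of TP1 and TP3 minus that of TP2 and TP4, as measured (left) and after removal of the GC trend (right). Members of low GC content such as Postn and Vcan lie above 0 and those of high GC content such as Emilin3 below it on the left, and on the right Postn and Vcan still lie at 1.62 and 1.70.

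Between GEM-BCC tumors the members had a median SD of log2 CPM of 0.67, beside 0.44 over all tested genes and 0.40 over those at least as high as the lowest member. In Tp-BCC the same values were 0.58, 0.58 and 0.56. GEM4 and GEM7 were low in the members as a whole, with a median of -0.41 and -0.39 relative to the GEM-BCC mean, and GEM4 was the lowest tumor for 14 of the 49. GEM3 was highest for 13 members. Tumors of 1 mouse were not the most alike: of 36 pairs, GEM7 and GEM8 had rank 3 by their median absolute log2 difference (0.47) and GEM2 and GEM3 rank 20 (0.69). GEM1 and GEM8, from different mice, were closest (0.33), both low in Cnn1 and Postn and high in Eln, Fbn1 and Loxl2.

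Over 1176 pairs of members the median correlation across GEM-BCC tumors was 0.15, and 41 pairs had r above 0.8. Acta2 was close to Pcolce (0.98), Emilin1 (0.93), Prrx1 (0.93) and Sparc (0.91), that is, to matrix genes as well as to contractile ones. Fbn1 went with Loxl2 (0.93) and Spon1 (0.87), Fn1 with Thbs1 (0.91), Islr with Twist2 (0.95) and Tagln with S100a4 (0.92). Tnc went with Crtac1 (0.77), the only member lower than Tnc in its log2 fold change, and against Loxl1 (-0.88) and Fbln5 (-0.81). Fn1 and Thbs1, alike within GEM-BCC, differed between the models in opposite directions. These are descriptions of 9 tumors that share a batch.

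Markers of other cell types were read for the same tumors. Of 8 endothelial markers 4 rose and 0 fell in edgeR's test, where 11.1% of all tested genes rose and 8.35% fell. The summed level of the 8 was 109 to 271 CPM in GEM-BCC and 358 to 438 CPM in Tp-BCC, and 5 had an unadjusted p under 0.05. Emcn, among the 4 that rose and named after its value was seen, passed in 2 of the 13 fits that left out 1 tumor. Of 6 tested adipocyte markers of 8, 5 rose, beside the same 11.1% of all tested genes (9.14 to 13.99 CPM against 24.3 to 257 CPM, highest in TP2). Among these 5, Adipoq and Lipe did not pass without TP2 (adjusted p 0.152 and 0.414, edgeR). Cidec and Cfd, also among the 5, met the filter on low counts in only 9 of the 13 fits that left out 1 tumor. Only 4 tumors therefore held enough counts. A gene that passes this filter through Tp-BCC alone can only be found higher, so no rise is read from Cidec and Cfd. Of 7 tested dermal papilla markers of 8, 4 rose and 0 fell (57.0 to 152 CPM against 198 to 315 CPM). Of the 7, 2 had a negative log2 fold change, down to -1.20. Bmp4 (3.04, SE 0.32), Lef1 (2.99, SE 0.30) and Sox2 (2.09, SE 0.68) were called higher. Sox2 kept its call in 2 of the 13 fits that left out 1 tumor. Alx4, which rose and is named after its value was seen, did not pass without TP2 or TP4 (adjusted p 0.0574 and 0.0728, edgeR). Of 7 pericyte markers and 8 epithelial markers 0 passed the edgeR test, while 1 and 2 had an unadjusted p under 0.05, and of 8 macrophage markers 1 rose. The 4 tested skeletal muscle markers of 10 did not pass, with 3.85 to 8.86 CPM in GEM-BCC and 1.94 to 141 CPM in Tp-BCC. Of 4 tested Schwann cell markers 0 passed, and 2 of 4 tested chondrocyte markers fell, Sox5 being called (-2.40, SE 0.54). The other, Col11a2, passed in 4 of the 13 fits that left out 1 tumor. No marker of these lists that had a value in every tumor was at 0 in all Tp-BCC tumors. Matn1 of the chondrocyte list lacked such values and could not be judged. The part of these cells in the rise of Pdgfrb, Thy1, Pi16, Ogn and the elastic fibre genes, or in the fall of Crtac1, was not tested.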

How the data were processed

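RNA of 13 tumors was enriched for poly(A) mRNA and sequenced with 1 library per tumor. The authors cleaned the reads, aligned them with Bowtie2 (2.3.4.3) to GRCm39 and deposited unrounded RSEM (1.3.1) expected counts per gene symbol, in which 2.65% to 4.11% of values per library were not whole. How missing values arose is not given in the sources used here.

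Expected counts were rounded. Of 21100 listed genes, 16687 had a value in every tumor, and 14390 of these had at least 10 counts in at least 4 tumors. Library sizes were scaled by TMM, and Tp-BCC was compared with GEM-BCC by robust quasi-likelihood tests in edgeR (4.0.16, R 4.3.3) with Benjamini-Hochberg adjustment. Per-tumor CPM used TMM-scaled library sizes, and log2 CPM a prior count of 2. All 49 members are named, with values by tumor for called members, the most changed and the 2 best expressed of each role. Of the other listed genes, called ones and up to 3 of the best expressed could be named. The members and lists were chosen with earlier results of these data known.

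Alternatives were DESeq2 (1.42.0) size factors and test, unscaled library size, other filters and handling of missing values, no robust estimation, counts summed per mouse, a block on tumor number, limma (3.58.1) without and with removal of a lowess GC trend (span 0.3, GC known for 97.9% of tested genes), and omission of each tumor. The fits were tested on simulated data. Lengths for levels per kilobase and GC content came from protein-coding transcripts of a GENCODE mouse annotation (GRCm38) and promoters from RefSeq, matched by symbol.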

Additional observations from a re-analysis of the deposited data

Results flagged for a closer look

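Of 98 groups tested (49 members in each model), 2 held a tumor whose distance from the nearest of the others was a large share of the whole range, where chance flags about 1 in 20 groups. Mfap4, encoding a microfibril-associated glycoprotein, had a log2 CPM of 4.87 in GEM4 against 6.92 to 8.74 in the other GEM-BCC tumors, a share of 0.529. GEM4 was also the tumor with the lowest summed level of the members. Fn1 had a log2 CPM of 6.26 in GEM3 against 7.07 to 7.86 in the others, a share of 0.508.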

How the results depend on the processing

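The number of members called lower in Tp-BCC was 4. It was 7 with TP2 and TP4 as the only Tp-BCC tumors, a setting added after seeing the data, and 2 to 4 with each tumor left out, with 2 without GEM9, where Thbs1 and Ccdc80 were under the fold threshold. The number called higher was 6, with 5 to 7 when a tumor was left out and 16 at a log2 fold threshold of 1. By the adjusted p alone, 6 members fell (10 with TP2 and TP4 alone) and 17 rose (7 with TP1 and TP3 alone, likewise added, and 12 to 17 with a tumor left out). The median log2 fold change of 0.10 was -0.005 with library size alone, -0.08 with TP1 and TP3, 0.44 with TP2 and TP4, and -0.12 to 0.25 with a tumor left out, being lowest without TP4. The labels number tumors in both models, but same-numbered tumors did not deviate together (correlations of -0.381 to -0.101), so the replicate block describes no pairing; with it, 1 member was called lower and 3 higher, 1 fell and 3 rose by the adjusted p, and of the other listed genes 0 fell and 2 rose, instead of 13 and 18. DESeq2 size factors and test, missing values as 0 and non-robust estimation left every member on the same side of the threshold in the same direction.

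Directions turned only in members that had not passed. With library size alone these were Acta2 (-0.005), Aebp1 (-0.02), Emilin1 (-0.04) and Eln (-0.04), and with limma Mfap4 (0.01). After GC removal they were Eln (-0.06), Emilin1 (-0.17), Aebp1 (-0.24), Lox (0.01), Efemp1 (0.17), Spon1 (0.18) and Prrx1 (0.35). With TP1 and TP3 they were Fmod (-0.08), Mfap2 (-0.15), S100a4 (-0.26), Acta2 (-0.28), Eln (-0.41), Aebp1 (-0.53), Emilin1 (-0.64), Lox (0.30) and Prrx1 (0.51), and with TP2 and TP4 Bgn (0.31). With the replicate block they were Thbs2 (0.07), Spon1 (0.10) and Mfap4 (0.36). Leaving out a tumor gave Lum -0.21 to 0.34, Bgn -0.40 to 0.06, Fmod -0.11 to 0.40, Eln -0.30 to 0.25, Emilin1 -0.36 to 0.30, Aebp1 -0.30 to 0.28, Acta2 -0.10 to 0.25, S100a4 -0.23 to 0.53 and Prrx1 -0.38 to 0.19. The cause of these changes was not tested. Depth in Tp-BCC limits Crtac1, at 0 to 10 counts.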
